A study of Mus musculus with 4 samples.

Results

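The stretch of mouse chromosome 13 from 21 to 24.5 Mb (build mm8) was taken as the main histone gene cluster, made of 2 blocks of histone genes and a block of vomeronasal receptor genes between them. It was set by its position, with earlier results of these data known. It comprised 700 bins of 5 kb, of 494868 such bins with a read in the genome, and 3500 bins of 1 kb for detail. At least 1 read from any library fell in 673 of the 5 kb bins and in 2966 of the 1 kb bins. The study used chromatin immunoprecipitation with sequencing (ChIP-seq), in which DNA bound to a modified histone is pulled down with an antibody and sequenced, to map 3 trimethylation marks of histone H3 in MEF (mouse embryonic fibroblasts). These are connective tissue cells grown out of mouse embryos, and the labels give no genotype, strain or embryonic age for them. Serum differed between the cultures, with FBS for MEF and cosmic calf serum for secondary MEF. The remaining library mapped H3K9me3 in secondary MEF. These were taken 13.5 days post coitum from chimeric embryos made by injecting induced pluripotent stem cells into BDF2 blastocysts. The injected cells carried inducible Oct4, Klf4 and Sox2 and a selectable Oct4 cassette, and fibroblasts derived from them were enriched by 48 hours in 2 µg/ml puromycin. Host cells that survived this selection may remain, and whether doxycycline was given before harvest was not given in the sources used here. The MEF and secondary MEF H3K9me3 libraries were made with the same antibody lot but run on different flow cells, so cell source and run cannot be told apart.

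With 1 library in each of the 4 groups, there are no replicates, and what is compared throughout is one library with another. Single-location reads came to 12244567 in the H3K4me3 library, 9782554 in H3K27me3, 8912337 in H3K9me3 from MEF and 7985901 in H3K9me3 from secondary MEF, of which 24905, 11592, 9879 and 8585 fell in the window. A level is the number of these reads in a bin divided by the library's own genome mean, which was 24.7, 19.8, 18.0 and 16.1 reads per 5 kb bin in the same order. To be called, a bin had to reach 2-fold and a one-sided Poisson value under 0.001 after Benjamini-Hochberg adjustment over all bins of the genome. Intervals are at the 95% level, exact Poisson for a level and exact binomial (Clopper-Pearson) for a share or a ratio, and cover counting error only. The fibroblast identity of the samples was not checked against marker genes, because genes annotated on mm8 were not used here, and for the same reason no gene is placed at an mm8 position below. Input libraries were not used here.

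Replication-dependent histone genes supply the H1, H2A, H2B, H3 and H4 proteins that package new DNA in S phase. They are short, without introns, and lie in clusters in which an H2A gene and an H2B gene often start back to back from a shared promoter. H3K4me3 sits at active and poised promoters, H3K27me3 is written by Polycomb repressive complex 2 at silenced developmental genes, and H3K9me3 is a mark of heterochromatin. Vomeronasal receptor genes are used by sensory neurons of the vomeronasal organ and are not known for activity in fibroblasts.

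In the RefSeq gene order of build GRCm38.p6, the interval from Trim27 to Cmah held 56 histone genes, of which 54 were protein coding. No histone gene lay among the 75 vomeronasal receptor genes of the Vmn1r family: 24 histone genes came before them and 32 after. The interval also held 95 tRNA genes, 50 before and 45 after the receptor genes. Upstream sequence was listed for 51 histone genes, and it was searched over the 250 bases before each start, on both strands, for 3 motifs. These were CCAAT, a box bound by nuclear factor Y, the octamer ATTTGCAT, known from H2B promoters and bound by Oct factors, and the core promoter element TATAAA. No searched motif contains another. The first was present at all 6 H1, 13 H2A, 13 H2B and 7 H3 genes with a sequence but at 3 of 11 H4 genes, against 33.8% of 32851 mouse promoters and 11 of 33 vomeronasal receptor genes. The octamer was present at 5 of 13 H2A and 5 of 13 H2B genes, at 1.60% of all promoters and at 3 of 33 vomeronasal receptor genes (9.09%). The H2A and H2B counts are not independent, because many back-to-back H2A and H2B genes share one DNA segment upstream. The core promoter element was present at 26 of 51 histone genes, at 12.4% of all promoters and at 6 of 33 vomeronasal receptor genes (18.2%). A match is a run of letters and not a measured binding site.

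The upstream sequences that follow were chosen because they show the 2 features that bear on the read maps: back-to-back H2A and H2B genes, and copies so alike that a short read cannot be assigned to either. They are RefSeq sequences of build GRCm38.p6, written 5′ to 3′ on the strand of the gene, ending at the base before its start, with capitals for any of the 3 motifs on either strand.
H2bc1: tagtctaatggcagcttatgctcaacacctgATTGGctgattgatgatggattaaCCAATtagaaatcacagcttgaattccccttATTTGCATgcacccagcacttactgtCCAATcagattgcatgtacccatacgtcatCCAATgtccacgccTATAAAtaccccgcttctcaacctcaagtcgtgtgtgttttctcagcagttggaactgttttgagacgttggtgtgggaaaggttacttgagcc
H2bc22: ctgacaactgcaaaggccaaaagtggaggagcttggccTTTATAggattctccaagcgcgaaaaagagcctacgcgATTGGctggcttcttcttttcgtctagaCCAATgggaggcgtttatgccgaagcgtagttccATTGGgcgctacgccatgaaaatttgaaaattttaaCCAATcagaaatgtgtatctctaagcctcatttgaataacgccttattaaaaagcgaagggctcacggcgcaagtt
H4bc24: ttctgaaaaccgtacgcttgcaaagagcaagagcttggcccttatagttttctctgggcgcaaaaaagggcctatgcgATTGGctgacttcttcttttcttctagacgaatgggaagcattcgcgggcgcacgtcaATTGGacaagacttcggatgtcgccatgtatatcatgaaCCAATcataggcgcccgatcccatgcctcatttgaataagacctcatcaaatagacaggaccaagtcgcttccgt
H4c17: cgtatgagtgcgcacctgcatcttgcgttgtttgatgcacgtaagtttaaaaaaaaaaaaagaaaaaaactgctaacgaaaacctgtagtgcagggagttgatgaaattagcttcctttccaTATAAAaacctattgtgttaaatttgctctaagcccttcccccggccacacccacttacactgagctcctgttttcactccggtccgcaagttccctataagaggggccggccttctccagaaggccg
H4c18: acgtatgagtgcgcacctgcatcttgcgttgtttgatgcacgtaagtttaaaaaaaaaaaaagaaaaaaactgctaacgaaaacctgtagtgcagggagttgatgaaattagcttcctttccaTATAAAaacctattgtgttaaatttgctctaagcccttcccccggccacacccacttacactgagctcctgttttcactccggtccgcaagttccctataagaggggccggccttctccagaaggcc
H2bc1, on the minus strand, shares 220 of these bases with the divergent H2ac1, and it holds 4 CCAAT motifs, 1 octamer and 1 TATAAA. H2bc22, on the plus strand, shares 239 bases with the divergent H2ac22 and holds 4 CCAAT motifs and 1 TATAAA. H4bc24, so named in the annotation and on the plus strand, is the partner of H2ac24, with which it shares 233 bases. It was counted apart from both the H2B and the H4 genes above. All 250 bases of H4bc24 were also found upstream of H2bc23, a separate gene on the minus strand. The H4 genes H4c17 (plus strand) and H4c18 (minus strand) had 249 bases in common, offset by a single base, and neither holds CCAAT or the octamer. In gene order these copies form a mirror image: H2bc23, H2ac23 and H4c17 on one side face H4c18, H2ac24 and H4bc24 on the other, each with its strand turned over. Among the 51 sequences, 19 pairs shared a run of 36 bases or more, the assumed read length. In 10 of these pairs the run was one DNA segment read from both strands, and in 9 it was a separate copy, involving 10 genes.

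H3K4me3 was concentrated in parts of the window's outer blocks, without filling them, and was almost absent between these blocks. It was called in 107 of 673 bins (15.9%), against a genome background of 6.27%, and these 107 bins held 81.8% of the H3K4me3 reads of the window, against 61.6% for called bins of the genome. The genome was laid out in 741 windows of 3.5 Mb, where the median number of called bins was 30 and 51 windows had more than 107. The whole window stood at 1.5-fold in the H3K4me3 library, at 0.871-fold in H3K27me3, and at 0.815-fold (MEF) and 0.790-fold (secondary MEF) in H3K9me3. Called bins crowded most in the 100 kb from chr13:23500001-23600000, where 15 of 20 were called, and only 17 of 26298 such windows in the genome had more. The neighbouring chr13:23400001-23500000 had 13, at a mean of 6.10-fold, the highest 100 kb mean in the window. Before the middle stretch chr13:21200001-21300000 had 11. Of the 35 windows of 100 kb, 18 had a called bin (genome 39.8%) and 10 had 5 or more (genome 7.76%).

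**Figure D1:**
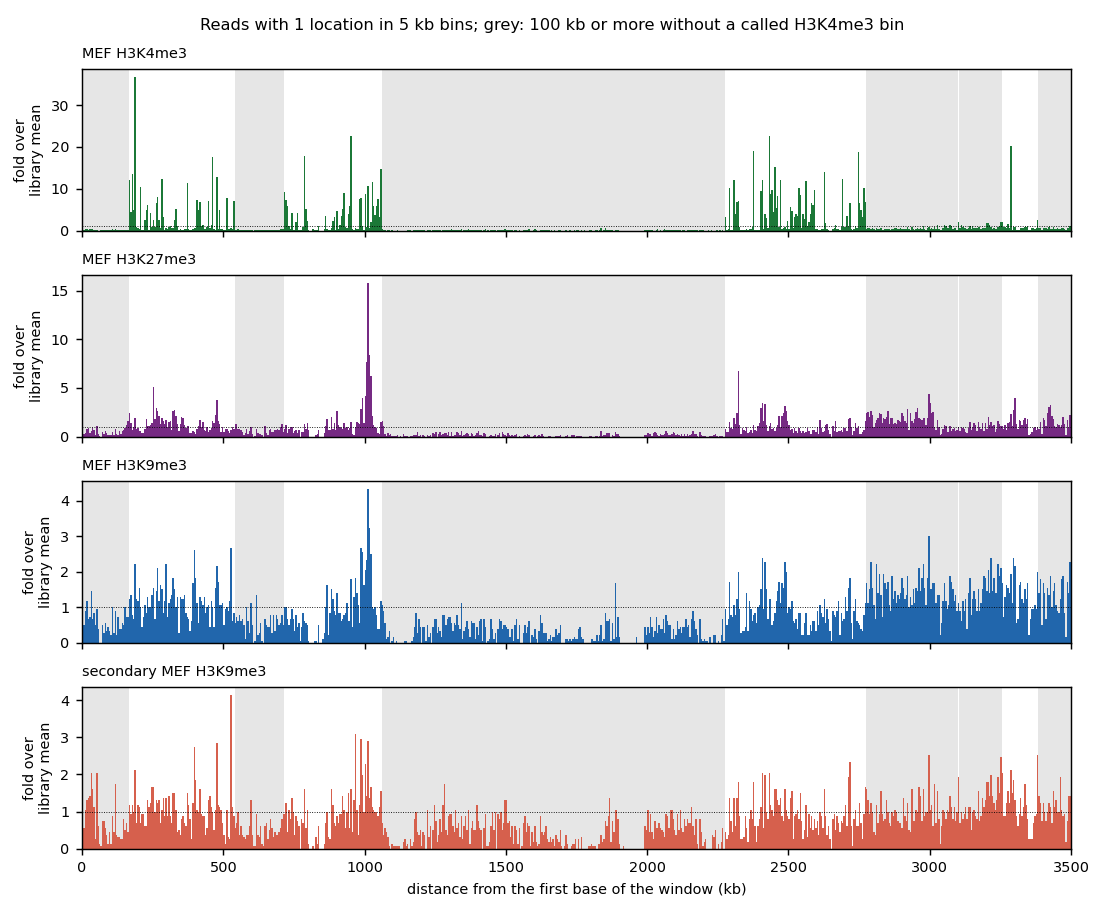
Level of each library in 5 kb bins, as fold over its own mean, against the distance from the first base of the window in kb; the vertical scales differ between the 4 panels, grey marks stretches of 100 kb or more without a called H3K4me3 bin, and the dotted line is the library mean. H3K4me3 reaches 36.7-fold outside the 1215 kb grey stretch in the middle, across which all libraries are low.

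Stretches of 100 kb or more without a called H3K4me3 bin are called silent below, a word for this mark only, and the rest of the window dense. There were 6 silent stretches. The longest, chr13:22060001-23275000, ran for 1215 kb, with reads in 220 of its 243 bins. The only other part with bins lacking any read was the second dense part, with reads in 65 of 69. The others were the first 165 kb of the window (up to 21165000), chr13:21540001-21715000 (175 kb), chr13:23775001-24100000 (325 kb), chr13:24105001-24255000 (150 kb) and the last 115 kb of the window (from 24385001), of which the first and the last are cut by the window's edges. In the genome 335 runs without a called bin were at least as long as the 1215 kb one, 12 of them on chromosome 13, so its length alone does not set it apart. The dense parts were chr13:21165001-21540000, chr13:21715001-22060000, chr13:23275001-23775000, the lone bin chr13:24100001-24105000 and chr13:24255001-24385000, with 28, 30, 45, 1 and 3 called bins.

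H3K4me3 stood at 3.40-fold (3.32 to 3.49), 3.5-fold (3.41 to 3.59) and 3.81-fold (3.73 to 3.88) in the 3 large dense parts, in order, and at 1.51-fold (1.41 to 1.61) in the 130 kb one. In the longest silent stretch it was 0.0970-fold (0.0889 to 0.106), with no bin above 0.647-fold. The 2 silent stretches before it had 0.147-fold (0.122 to 0.176) and 0.154-fold (0.129 to 0.182). The 3 after it were higher, at 0.520-fold (0.486 to 0.557), 0.823-fold (0.759 to 0.891) and 0.529-fold (0.471 to 0.592). All dense parts together had 3.39-fold and all silent stretches 0.252-fold, a ratio of 13.4 (12.9 to 14.0). Without the longest stretch that ratio was 7.79. These differences follow in part from the definition, since the call that bounds the stretches uses the same reads, and they are given as a description.

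The other libraries, which took no part in that definition, differed between the silent stretches. H3K27me3 was 0.177-fold (0.165 to 0.190) in the longest stretch, with 0 of 220 bins called. It was 1.67-fold (1.60 to 1.74) in the 325 kb stretch that follows the last large dense part, with 18 of 65 bins called, and 1.03-fold (0.952 to 1.12) and 1.53-fold (1.42 to 1.65) in the stretches after that. MEF H3K9me3 was 0.328-fold (0.310 to 0.346) in the longest stretch and 1.43-fold (1.36 to 1.5) in the 325 kb stretch. Secondary MEF H3K9me3 was 0.453-fold (0.431 to 0.476) and 0.991-fold (0.932 to 1.05) in the same stretches. Silence for H3K4me3 thus came with levels of all 4 libraries below their means in the longest stretch and in the 2 before it, and with MEF H3K9me3 above its mean in all 3 stretches that follow, and H3K27me3 in 2 of the 3, the interval of the remaining one including 1. In the 2 before the longest H3K27me3 was 0.507-fold and 0.588-fold, MEF H3K9me3 0.584-fold and 0.530-fold, and secondary MEF H3K9me3 0.747-fold and 0.496-fold. Taken over all silent stretches, the dense parts had 2.03 times their H3K27me3 level, 1.51 times their MEF H3K9me3 level and 1.5 times their secondary MEF H3K9me3 level. Those ratios rest on the longest stretch: without it they were 1.10, 0.936 and 1.10. Reads that could be placed at a single location set these levels, and repeated sequence lowers them; how much of the longest stretch is repeated was not tested.

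**Figure D2:**
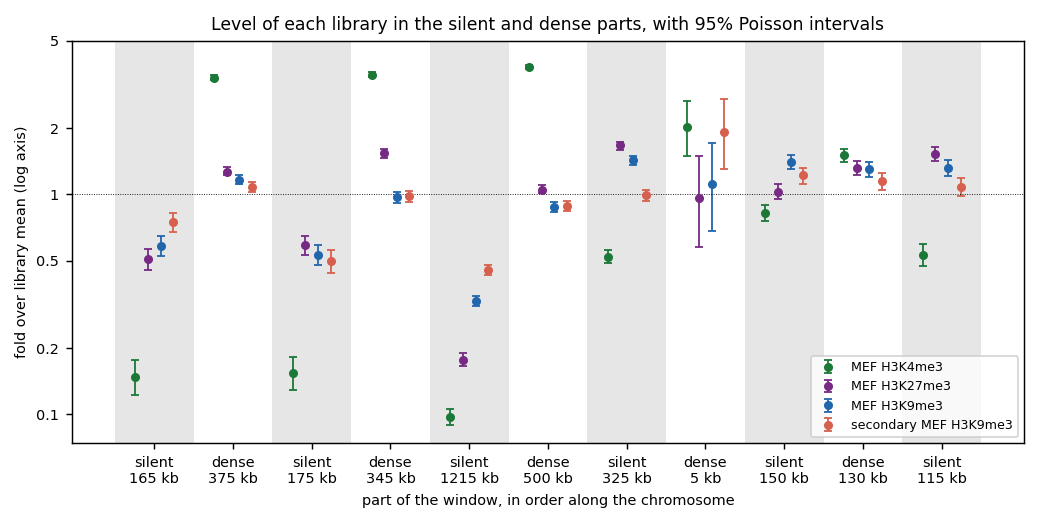
Fold over the library mean (log axis) of the 4 libraries in the 11 parts of the window, in order along the chromosome, with 95% Poisson intervals; grey columns are silent stretches, each labelled with its length. The 1215 kb stretch is low in all libraries, while H3K27me3 and MEF H3K9me3 stand above 1 in the 325 kb stretch.

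At 1 kb resolution the H3K4me3 signal broke into 106 regions of adjoining called bins, made of 235 bins (7.92% of 2966, against 3.09% in the genome). They divided into 56 before the longest silent stretch, 0 inside it and 50 after it. The 0 follows in large part from the definition of the stretch, which used calls on the same reads. Before, among and after the receptor genes, the RefSeq order on the other build had 24, 0 and 32 histone genes and 50, 0 and 45 tRNA genes. None of the regions was assigned to a gene of either kind. In width 33 were 1 kb (31.1%, genome 47.3%), 40 were 2 kb, 19 were 3 kb and 14 were wider (13.2%, genome 12.5%), up to 8 kb, with a median of 2 kb as in the genome. The median gap between neighbours was 9 kb (genome 21 kb), and 56.7% of gaps were 10 kb or less (genome 30.9%). They were also high: the highest bin of the median region stood at 17.4-fold (genome 7.25), and 46 of 106 reached 20-fold, which is 43.4% against 33.7% in the genome. In 5 kb bins this held for the median called bin, at 6.22-fold against 4.89-fold, but not for the strongest. There 27 of 107 called bins reached 10-fold, against 10548 of 31010 in the genome.

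The highest region, chr13:21186001-21190000, reached 469 reads in a 1 kb bin, 87.2-fold (79.5 to 95.5), with 7 H3K27me3 reads there at 1.63-fold. The next, chr13:21952001-21954000, reached 466 reads and 86.7-fold (79.0 to 94.9). After the longest silent stretch chr13:23375001-23378000 and chr13:23430001-23434000 reached 73.8-fold (66.7 to 81.5) and 73.6-fold (66.6 to 81.3). The intervals of the first pair do not separate them, nor do those of the second pair. The other 8 of the 12 highest lay between 43.0-fold and 50.2-fold: chr13:22057001-22060000, chr13:21786001-21789000, chr13:21460001-21462000, chr13:21475001-21477000, chr13:23746001-23749000, chr13:24286001-24290000, chr13:23452001-23455000 and chr13:23408001-23410000. Of the 12, 6 lay before the longest silent stretch and 6 after it, and the first of these 8 ended at that stretch's very edge. H3K27me3 was below 5-fold at the peak of 11 of the 12; the exception, chr13:21475001-21477000, had 9.31-fold (6.65 to 12.7), with MEF H3K9me3 at 6.90-fold and secondary MEF H3K9me3 at 8.27-fold. Over all 106 regions 8 had H3K27me3 of 5-fold or more in their highest bin. The same count was not made for the regions of the genome, so it cannot be called low or high.

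A smaller share of the H3K4me3 bins was called in the other libraries in the window than in the genome. Of the 107, 19 were also called for H3K27me3, 17.8% (11 to 26.3) against 37.1% of the 31010 H3K4me3 bins of the genome. For MEF H3K9me3 it was 8, or 7.48% (3.28 to 14.2) against 39.8%, and for secondary MEF H3K9me3 again 8, or 7.48% (3.28 to 14.2) against 55.4%. By strength of H3K4me3, the gap was clear of counting error in weaker bins and not in all libraries for the strongest. Between 2-fold and 5-fold the H3K27me3 share was 12.2% (4.08 to 26.2) against 37.5% in the genome, and 1 of 41 bins was called for MEF H3K9me3, 2.44% (0.0617 to 12.9) against 44.2%. Between 5-fold and 10-fold it was 20.5% (9.30 to 36.5) against 45.6% for H3K27me3 and 7.69% (1.62 to 20.9) against 42.5% for MEF H3K9me3. At 10-fold or more the intervals included the genome's share for H3K27me3, at 22.2% (8.62 to 42.3) against 32.7%, and for MEF H3K9me3, at 14.8% (4.19 to 33.7) against 32.0%. For secondary MEF H3K9me3 it did not, at 14.8% (4.19 to 33.7) against 60.4%. Bins of this strongest class were not matched in strength, with a median H3K4me3 of 12.3-fold in the window and 19.1-fold in the genome. Among the 55 windows of 3.5 Mb with at least 107 H3K4me3 bins, the histone cluster window had the lowest share for each of the 3 libraries. In these windows the median share was 46.7% for H3K27me3, and 53.4% (MEF) and 68.2% (secondary MEF) for H3K9me3. The median level in the 107 bins was 1.06-fold for H3K27me3, 0.999-fold for H3K9me3 in MEF and 1.12-fold for H3K9me3 in secondary MEF, against 1.67, 1.83 and 2.17-fold in the H3K4me3 bins of the genome. The direction was the same with one read per position and strand, with no shift, with reads of 2 locations added and at 3-fold with an adjusted value under 1e-06, where the shares were 6.38%, 1.06% and 0% against 19.0%, 11.5% and 23.1% in the genome, in the same order.

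**Figure D3:**
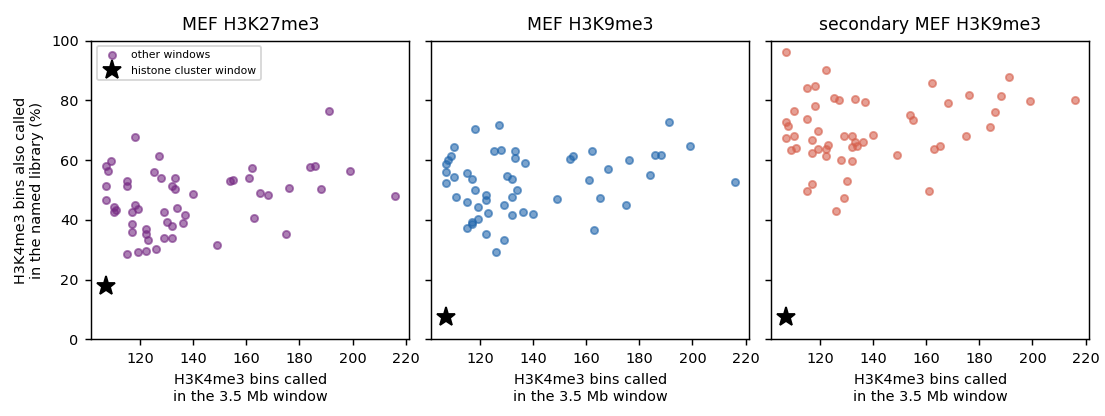
Percentage of a window's H3K4me3 bins that were also called in the named library (vertical axis) against the number of H3K4me3 bins called in the window (horizontal axis), for the 55 windows of 3.5 Mb with 107 or more. The star, the histone cluster window, lies below the other 54 in each panel, at 17.8%, 7.48% and 7.48%.

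H3K27me3 was called in 57 of 673 bins (8.47%), against a genome background of 11.3%. Before the longest silent stretch it was called in 19 of 208 bins (9.13%), inside it in 0 of 220, and after it in 38 of 245 (15.5%). The mean level was 1.12-fold before, 0.177-fold inside and 1.29-fold after, so the low mean of the whole window rests on that stretch. The largest H3K27me3 focus lay shortly before the longest silent stretch. The bin chr13:22010001-22015000 had 312 reads, 15.8-fold (14.1 to 17.6), and the adjoining bins chr13:22005001-22010000, chr13:22015001-22020000 and chr13:22020001-22025000 had 7.64-fold (6.47 to 8.96), 8.40-fold (7.17 to 9.78) and 6.27-fold (5.22 to 7.48). H3K4me3 was 10.6-fold (9.38 to 12) in the first of these 4 bins but 0.889-fold, 0.687-fold and 1.98-fold in the others, so the marks did not follow each other bin by bin. The run of called H3K27me3 bins also took in the bins on either side of these, chr13:22000001-22005000 with H3K27me3 at 4.20-fold and H3K4me3 at 8.73-fold, and chr13:22025001-22030000 with 2.12-fold and 11.6-fold. H3K4me3 was thus called in 3 of the 6 bins of the run. MEF H3K9me3 was above 2-fold in all of the first 4, at 4.33-fold, 2.33-fold, 3.22-fold and 2.50-fold, and its highest bin of the window was the same chr13:22010001-22015000. Secondary MEF H3K9me3 stood at 2.91-fold, 1.43-fold, 1.36-fold and 1.67-fold there. The other H3K27me3 bin of the 5 highest, chr13:23320001-23325000, had 6.78-fold (5.68 to 8.03) together with H3K4me3 at 7.11-fold (6.10 to 8.25). The window with the most H3K4me3 bins, chr13:23500001-23600000, had 0 of 20 bins called for H3K27me3, at a mean of 0.615-fold. Of the 57 called bins 25 lay in silent stretches, all of them after the last large dense part. In 1 kb bins it was called in 74 of 2966 (2.49%, genome 3.72%). At 3-fold with an adjusted value under 1e-06 the count of 5 kb bins was 17, and when a bin had also to exceed the mean of H3K4me3 and MEF H3K9me3 by 2-fold it was 32. The genome's counts under these rules were not worked out.

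H3K9me3 was sparse in the window in both kinds of fibroblast. It was called in 28 bins in MEF (4.16%, genome 10.3%) and in 13 in secondary MEF (1.93%, genome 9.32%), and 9 bins were called in both, 32.1% of the former (genome 49.7%) and 69.2% of the latter (genome 54.9%). In 1 kb bins 24 were called in MEF (0.809%, genome 1.65%) and 18 in secondary MEF (0.607%, genome 1.28%). Of the 28 MEF bins of 5 kb, 18 were also called for H3K27me3 (64.3%, genome 64.6%). Few of these calls stood above the other marks: when a bin had also to exceed the mean of the MEF H3K4me3 and H3K27me3 levels by 2-fold, 2 bins remained in MEF and 3 in secondary MEF, and the stricter threshold left 2 in each. Genome counts under these rules were not worked out, so whether the window lost more of its calls than the genome is not known. The highest secondary MEF bin, chr13:21525001-21530000 near the end of the first dense part, had 67 reads and 4.15-fold (3.22 to 5.27), and MEF H3K9me3 was 2.67-fold (1.97 to 3.53) there. In this bin H3K4me3 was 0.687-fold and H3K27me3 0.658-fold, so the H3K9me3 libraries were high where the other marks were not. The other leading bins were mixed. The bin chr13:23995001-24000000, in the 325 kb silent stretch, had MEF H3K9me3 at 3-fold, secondary MEF H3K9me3 at 2.54-fold and H3K27me3 at 4.35-fold. In chr13:21985001-21990000 both H3K9me3 libraries were high, MEF at 2.67-fold and secondary MEF at 2.97-fold, beside H3K4me3 at 7.92-fold, and chr13:21475001-21480000 had secondary MEF H3K9me3 at 2.85-fold beside H3K4me3 at 12.7-fold. In chr13:21965001-21970000 secondary MEF H3K9me3 was 3.10-fold (2.30 to 4.08) and MEF H3K9me3 1.83-fold (1.26 to 2.57), with H3K4me3 at 0.566-fold.

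Set against each other and scaled to total reads, the H3K9me3 libraries had nearly the same level over the window, at a secondary MEF to MEF ratio of 0.970 (0.942 to 0.998). Scaled to the reads of chromosome 13 it was 1.01 (0.983 to 1.04), so no direction is given for the whole. Over all silent stretches the ratio was 0.972 (0.933 to 1.01), which joined opposite values. In the longest stretch secondary MEF was higher, at 1.38 (1.28 to 1.49), from 1608 against 1298 reads, and the ratio was 1.44 when scaled to chromosome 13 and 1.34 with reads of 2 locations added. The first silent stretch, at the window's start, also had a higher secondary MEF level, at 1.28 (1.11 to 1.48), and the next one had 0.936 (0.795 to 1.10). In the 325 kb stretch it was lower, at 0.693 (0.641 to 0.749), and over the 3 stretches after the longest the ratio was 0.761 (0.719 to 0.806). In the 3 large dense parts it was 0.924 (0.858 to 0.996), 1.01 (0.925 to 1.10) and 1.01 (0.937 to 1.08). Of the 11 windows of 100 kb inside the longest stretch, 10 had a ratio above 1, and in 6 the interval excluded 1. Of the 10 windows before it 3 had a ratio above 1, and in 2 the interval excluded 1. Of the 12 windows after it 5 had an interval below 1, and the lowest ratio was 0.622 (0.535 to 0.721) in chr13:23800001-23900000.

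Among the silent stretches, the highest ratio was found where every library was lowest, and the 3 with an interval below 1 were those with MEF H3K9me3 above its mean. MEF H3K9me3 is the divisor of the ratio, so low ratios at high MEF levels are in part built into the measure. Across the 6 silent stretches MEF H3K9me3 ran from 0.328-fold to 1.43-fold and secondary MEF H3K9me3 over a smaller range, from 0.453-fold to 1.22-fold. Outside the silent stretches, neighbouring windows with many H3K4me3 bins had unlike ratios. In chr13:23500001-23600000, with the most H3K4me3 bins, the ratio was 1.40 (1.16 to 1.68), with MEF H3K9me3 at 0.583-fold. In chr13:23400001-23500000 it was 0.906 (0.792 to 1.04), with MEF H3K9me3 at 1.37-fold. Of 431 bins with at least 20 reads in both libraries together, 0 were 2-fold higher in secondary MEF with an interval allowing 0.1% error (genome 0.757%), and 2 were lower (0.464%, genome 0.575%). The 65 such bins in the longest stretch had a median ratio of 1.36, with 49 above 1, and the 366 others had a median of 0.916, with 150 above 1. The lowest ratios were 0.213 (0.0531 to 0.630) in chr13:21520001-21525000, 0.263 (0.0643 to 0.805) in chr13:24360001-24365000 and 0.291 (0.0970 to 0.736) in chr13:21345001-21350000, each from 6 or fewer secondary MEF reads. The highest were 6.32 (1.83 to 33.7) in chr13:22890001-22895000, 3.57 (1.25 to 12.5) in chr13:22460001-22465000 and 3.21 (1.39 to 8.30) in chr13:21450001-21455000. The lowest of all adjoins chr13:21525001-21530000, the bin with the highest secondary MEF level, where the ratio was 1.56 (1.06 to 2.31).

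**Figure D4:**
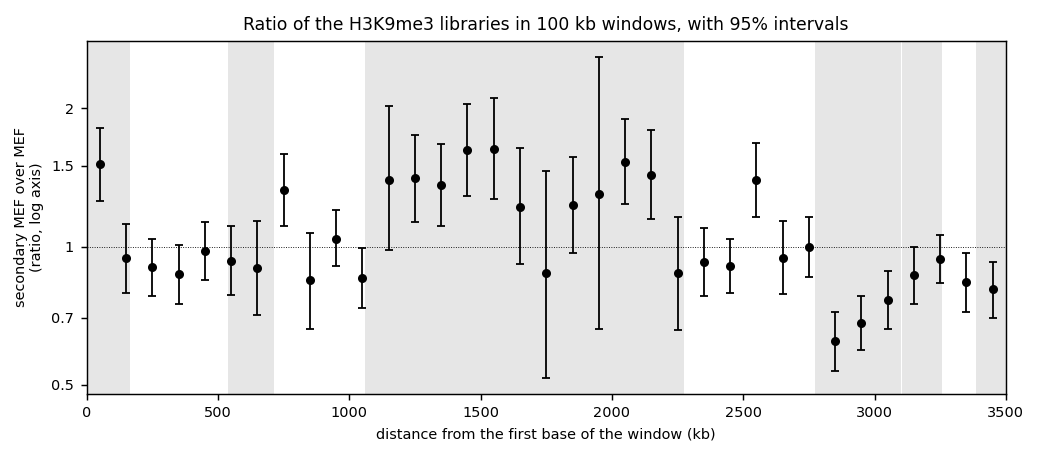
Secondary MEF over MEF ratio of H3K9me3 reads, scaled to total reads (log axis), in 35 windows of 100 kb against the distance from the first base of the window in kb, with 95% intervals; grey marks the silent stretches. Ratios run up to 1.63 in the middle stretch and down to 0.622 in the last large one.

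Reads with 2 locations were frequent in the window, and those of the H3K4me3 library gathered in few places. The authors' files list each such read at both of its positions, so a line is a place and not an extra read. The window held 4971 lines for H3K4me3, against a median of 440 over the 741 windows of 3.5 Mb, and 9 windows had more. The H3K27me3 library had 2014, and the H3K9me3 libraries 2280 (MEF) and 2355 (secondary MEF), against medians of 514, 596 and 536. For each 100 reads with 1 location there were 17.4 lines in the H3K27me3 library (genome 5.54) and 27.4 in the secondary MEF H3K9me3 library (genome 7.07). The 5 bins with the most lines over the 4 libraries held 39.4% of the H3K4me3 lines. Of these, chr13:21815001-21820000 had 781 H3K4me3 lines and 11 H3K4me3 reads with 1 location, and chr13:21840001-21845000 had 546 lines and 0 reads, which allows a level of up to 0.149-fold. The bin chr13:21835001-21840000 had 292 lines and 30 reads. The other 2, chr13:23315001-23320000 and chr13:23400001-23405000, had 177 and 161 lines, and unlike the first 3 they were already high in reads with 1 location, at 6.95-fold (5.95 to 8.07) and 9.58-fold (8.40 to 10.9).

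The first 3 of these bins belong to an inverted repeat. If a stretch of sequence recurs facing the other way, the positions of a read and its second location add up to a constant. At chr13 position 21829436 such mirror pairs numbered 646 for H3K4me3, 100 for H3K27me3, and 81 and 69 for the MEF and secondary MEF H3K9me3 libraries, where neighbouring positions gave a median of 88 for H3K4me3 and 0 for the other 3. The arms ran from 9 to 25 kb on either side of this axis, chr13:21804436-21820436 and chr13:21838436-21854436. They held 1749 H3K4me3 lines, 35.2% of those of the window, but only 17 H3K4me3 reads with 1 location, and 91.6% of the lines had a partner at the mirrored position. In the other libraries that share was 94.2% to 97.0%. Because each read is listed at both places, the equality of the arms is a property of the listing and says nothing about which arm the molecule came from. H3K4me3 lines peaked at 12 to 13 kb from the axis, with 362 in each arm, and at 9 to 10 kb, with 211 and 255. H3K27me3 and H3K9me3 lines were spread more evenly over the arms, with at most 28 in any kb; secondary MEF H3K9me3 lines were also most frequent at 12 to 13 kb, with 15 in each arm. Counted by reads with 1 location the arms had 0.107-fold H3K4me3, and with each line added at a weight of 0.5 they had 5.58-fold, beside 1.30-fold H3K27me3, 1.16-fold MEF H3K9me3 and 0.995-fold secondary MEF H3K9me3. The mirrored histone genes H2bc23 to H4bc24 shown above have the same arrangement of facing copies on build GRCm38.p6, but no gene was located on mm8 here, so whether these reads stem from them was not tested.

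**Figure D5:**
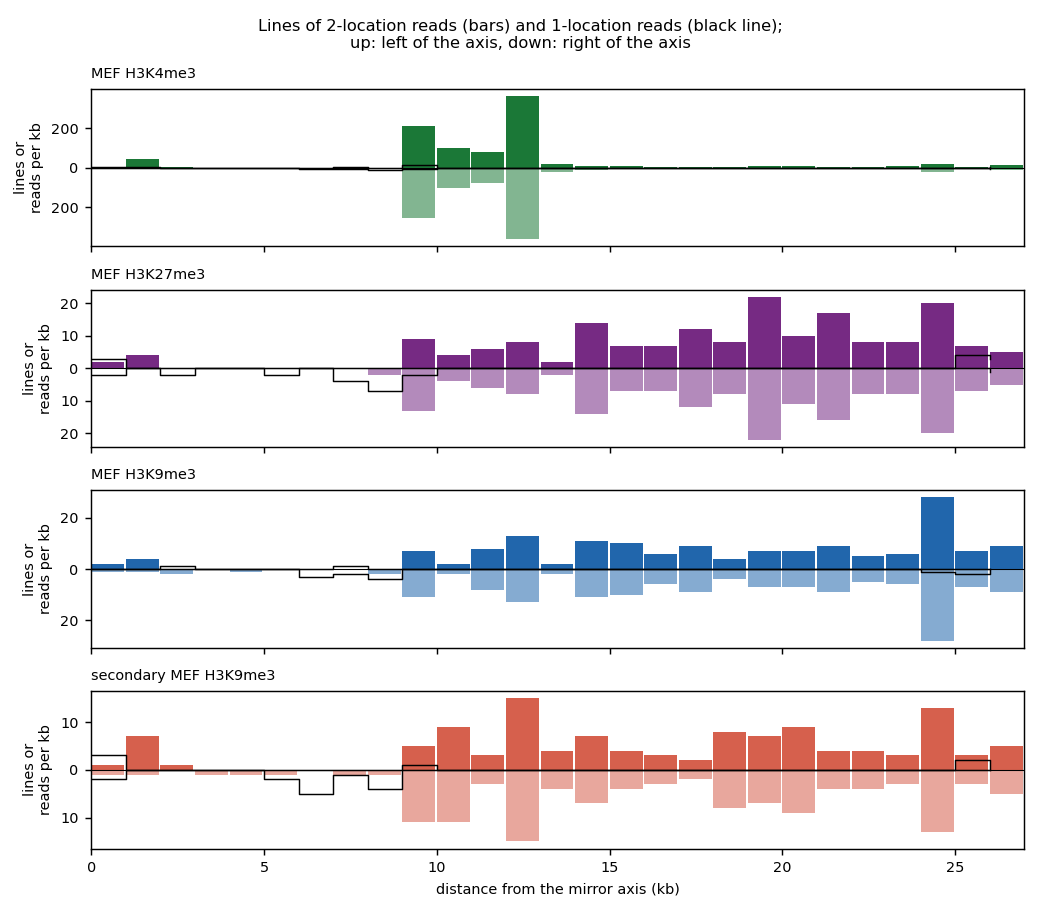
Lines of reads with 2 locations per kb (bars) and reads with 1 location per kb (black line) against the distance from the mirror axis in kb, drawn upward for the left arm and downward for the right arm, with a separate vertical scale for each of the 4 libraries. H3K4me3 lines reach 362 per kb in both arms at 12 to 13 kb, where reads with 1 location are near 0.

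Another axis, at 21829427 and so beside the first, also passed, with 150 pairs for H3K4me3, 52 for H3K27me3, and 50 and 29 for the MEF and secondary MEF H3K9me3 libraries, and its pairs were joined to those of the first. There were 2 mirror axes elsewhere in the window. The axis at 22954001 lies in the longest silent stretch, with arms from 20 to 36 kb on either side, some kb of them without a line, that held 0 reads with 1 location in any library and lines of which 100% had a mirrored partner. With lines at a weight of 0.5 the arms had 0.131-fold H3K4me3, 0.273-fold H3K27me3, 0.518-fold MEF H3K9me3 and 0.521-fold secondary MEF H3K9me3, near the levels of the whole stretch counted in that way. The axis at 23360557, after the longest silent stretch, joins short arms 43 to 45 kb away, at chr13:23315557-23317557 and chr13:23403557-23405557. In these arms H3K4me3 rose from 14.3-fold by reads with 1 location to 22.4-fold with lines added. The window also had direct copies 41474 bp apart, with 118 of 121 paired lines in the longest silent stretch, mostly between positions 22905549 and 22912204.

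Adding lines at a weight of 0.5 raised the number of called H3K4me3 bins from 107 to 112. The 5 added bins started at 21400001, 21815001, 21835001, 21840001 and 23565001, none of them in the longest silent stretch. In that stretch no bin was called in any of the 4 libraries with lines added. Lines were nonetheless as many there as reads with 1 location: 520 lines beside 528 reads for H3K4me3, 848 beside 769 for H3K27me3, and for H3K9me3 1332 beside 1298 in MEF and 1514 beside 1608 in secondary MEF. With lines at a weight of 0.5 the stretch had 0.131-fold H3K4me3, 0.248-fold H3K27me3, 0.445-fold MEF H3K9me3 and 0.598-fold secondary MEF H3K9me3, all still below the library means. Reads with more than 2 locations were left out by the authors' alignment, and their share in the stretch is unknown.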

How the data were processed

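The 4 libraries were 1 each of H3K4me3, H3K27me3 and H3K9me3 in MEF, from one flow cell, and H3K9me3 in secondary MEF, from another. Per the labels, chromatin averaged 500 bp and libraries were amplified over 18 cycles and cut from a gel at 150 to 350 bp. The deposited values are signed genome positions and not levels, that is, other than any count or signal. Per the file headers, the authors aligned to mm8 with Bowtie (version not given; -e 70, -k 2, -m 2, -n 2, -l 36) and listed reads with 1 and with 2 locations apart, so reads with more locations are missing.

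From these positions, reads with 1 location were moved by 75 bp toward their 3′ side and counted in 5 kb and 1 kb bins of chromosomes 1 to 19, X and Y. The number on a minus-strand line was taken as the leftmost base of a 36-base read. Adjoining called 1 kb bins were joined into regions. Mirror axes needed 10 pairs or more in each library, axes within 100 bp were joined, and arms ran from the first to the last 1 kb step with 10 or more positions whose exact mirror position, on the other strand, also had a line, over both sides and all libraries. In the window 92.2% to 98.5% of reads were at distinct positions. Named were the 12 highest H3K4me3 regions, all silent stretches, the 5 highest bins of each other library and of lines with 2 locations, and the 3 lowest and 3 highest H3K9me3 ratios. The window, lists and thresholds were chosen with earlier results of these data known. Calls, ratios and mirror axes were tested on simulated data. Python 3.11.15, numpy 2.4.6, scipy 1.17.1, pandas 2.3.3 and matplotlib 3.10.9 were used. Other settings tried were the bin width, one read per position and strand, stricter thresholds, the other marks as background, no shift, scaling, stretch length and reads with 2 locations. Alternatives for the longest stretch, for its omission and for shared calls were added after seeing the data.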

Additional observations from a re-analysis of the deposited data

How the results depend on the processing

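Of 77 alternative values, 53 stayed within 1.5 times a count or inside the interval of the value first given, and the H3K4me3 count, the longest silent stretch and the number of H3K4me3 regions did so under all alternatives tried. At 3-fold with an adjusted value under 1e-06, called bins fell to 17 for H3K27me3 and to 2 and 2 for H3K9me3 in MEF and secondary MEF, and the shares of H3K4me3 bins also called fell to 6.38%, 1.06% and 0%. With the other MEF marks as a further background the same counts were 32, 2 and 3. No genome count of called bins under these settings stands beside them. The H3K9me3 ratio crossed 1 over the window, to 1.01, when scaled to chromosome 13, and was 1.01 over the silent stretches. The dense over silent ratio of H3K4me3 was 14.7 with stretches of 50 kb or more, 12.7 with 200 kb or more, 12.5 with one read per position and 7.79 without the longest stretch. For H3K27me3 it was 2.19 with 200 kb or more and 1.10 without the longest, for MEF H3K9me3 1.71 and 0.936, which reversed it, and for secondary MEF H3K9me3 1.65 and 1.10, with 1.61 at 50 kb and 1.41 with reads of 2 locations. The longest stretch had lower levels than the other silent stretches together, so leaving it out lowers each ratio. H3K27me3 was 0.177-fold there against 1.14-fold in the others, and MEF H3K9me3 0.328-fold against 1.09-fold. The cause of the other shifts was not tested. The fullest 25 kb held 65.1% of H3K4me3 lines in 1 kb bins. No paired analysis was possible because each group holds 1 library and the groups share a single replicate number. With 16.1 to 24.7 reads per 5 kb, a 2-fold bin is often missed.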
